A study of Homo sapiens with 38 samples.

Results

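The E protein and ID genes are 7 genes of the helix-loop-helix family: the E protein genes TCF3 (E2A), TCF12 (HEB) and TCF4 (E2-2), and the inhibitor genes ID1, ID2, ID3 and ID4. They are 7 of 19970 protein-coding genes of the RefSeq gene table, and were taken by name. For each, every listed region that touched the gene record or the 50 kb on either side of it was kept, which gave 32 of 29009 GATA3 regions, 41 of 26205 BHLHE40 regions and 120 of 113570 H3K27ac regions. Here a region is 1 line of a peak list, a place where reads of an immunoprecipitated sample pile up, and its summit is the highest point.

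The study used Jurkat cells, an established line from a T-cell acute lymphoblastic leukaemia, and measured DNA bound to a protein or histone mark by chromatin immunoprecipitation and sequencing. The labels name 38 samples in 19 groups of 2. The 3 lists used here come from 3 of those groups, GATA3, BHLHE40 and H3K27ac, and every list combines the pair of samples in its group. All 6 samples were Jurkat cells with the control lentivirus called Ctrl-LV, treated with 50 ng/ml of PMA and 500 ng/ml of ionomycin, a mixture that mimics signalling from the T-cell receptor. Treatment took 5 hours by the labels of the samples, whereas the protocol text gives 2 hours. What the control virus carried is not given in the sources used here. Cells with the BHLHE40 lentivirus and cells whose labels begin with sg are not analysed here. All 38 sample titles read stimulated, so the series holds no resting cells. The cells are 1 line, and nothing in the labels says that the samples of a group came from separate cultures.

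E proteins bind DNA as dimers at short sites called E-boxes, whose letters are CANNTG. ID proteins have the dimerisation domain but no DNA-binding domain, so they hold E proteins off DNA. In developing T cells TCF3 and TCF12 proteins act together on genes of the pre-T-cell receptor and of receptor gene rearrangement, and T-cell receptor signalling raises ID3. In T-cell leukaemias TAL1 and LYL1 pair with E proteins. BHLHE40 is a helix-loop-helix repressor of the same wider family that prefers CACGTG, and GATA3 is a zinc-finger factor of T cells that binds GATA letters. H3K27ac marks active promoters and enhancers.

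The stretches of DNA shown for the start-site results are the 250 bases before an annotated start of 5 members, because a factor summit lay inside each. For TCF12 that is its second annotated start, and for TCF4 an internal start far from the start of the record. They are given 5′ to 3′ along transcription from RefSeq (GRCh38.p14), and capitals mark bases within 10 bases of a GATA3 or BHLHE40 summit. At ID1, where both factors were also listed at the start, the summits lay after the start, so its stretch is not shown.
TCF3, chr19:1652616-1652865, minus strand: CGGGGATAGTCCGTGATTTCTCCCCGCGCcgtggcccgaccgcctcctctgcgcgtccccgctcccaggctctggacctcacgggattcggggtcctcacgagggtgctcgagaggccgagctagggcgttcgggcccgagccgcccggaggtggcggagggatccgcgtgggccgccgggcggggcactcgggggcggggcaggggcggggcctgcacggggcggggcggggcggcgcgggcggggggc
TCF12, chr15:56918394-56918643, plus strand: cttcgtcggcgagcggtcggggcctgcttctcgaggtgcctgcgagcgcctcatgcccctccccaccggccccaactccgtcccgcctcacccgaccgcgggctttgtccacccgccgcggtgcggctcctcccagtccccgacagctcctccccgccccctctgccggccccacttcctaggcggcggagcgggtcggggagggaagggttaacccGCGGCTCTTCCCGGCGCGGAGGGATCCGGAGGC
TCF4, chr18:55589812-55590061, minus strand: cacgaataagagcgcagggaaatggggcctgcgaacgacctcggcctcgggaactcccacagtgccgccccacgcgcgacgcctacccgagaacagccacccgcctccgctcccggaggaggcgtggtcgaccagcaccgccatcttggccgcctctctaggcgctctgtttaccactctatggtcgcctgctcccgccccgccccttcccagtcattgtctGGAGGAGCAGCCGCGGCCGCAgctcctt
ID2, chr2:8681806-8682055, plus strand: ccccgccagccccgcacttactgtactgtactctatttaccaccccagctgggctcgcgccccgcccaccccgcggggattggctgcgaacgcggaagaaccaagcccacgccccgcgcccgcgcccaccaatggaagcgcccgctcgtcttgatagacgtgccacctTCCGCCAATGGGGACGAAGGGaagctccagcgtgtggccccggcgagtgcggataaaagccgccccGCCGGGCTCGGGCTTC
ID3, chr1:23559502-23559751, minus strand: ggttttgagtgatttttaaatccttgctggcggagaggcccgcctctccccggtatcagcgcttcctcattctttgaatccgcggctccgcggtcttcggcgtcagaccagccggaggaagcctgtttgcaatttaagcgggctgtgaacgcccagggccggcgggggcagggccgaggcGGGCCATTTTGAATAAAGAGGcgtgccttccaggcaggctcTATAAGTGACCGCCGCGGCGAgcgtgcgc

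A further pair of stretches is shown because they hold CACGTG, the site BHLHE40 prefers, in capitals. They lie before the first start of TCF12 and before an internal start of TCF4.
TCF12, chr15:56917840-56918089, plus strand: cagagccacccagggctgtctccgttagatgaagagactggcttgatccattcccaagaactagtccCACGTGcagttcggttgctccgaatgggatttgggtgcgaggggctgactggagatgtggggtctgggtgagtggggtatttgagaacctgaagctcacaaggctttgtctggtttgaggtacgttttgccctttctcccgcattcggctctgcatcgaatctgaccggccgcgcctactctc
TCF4, chr18:55588618-55588867, minus strand: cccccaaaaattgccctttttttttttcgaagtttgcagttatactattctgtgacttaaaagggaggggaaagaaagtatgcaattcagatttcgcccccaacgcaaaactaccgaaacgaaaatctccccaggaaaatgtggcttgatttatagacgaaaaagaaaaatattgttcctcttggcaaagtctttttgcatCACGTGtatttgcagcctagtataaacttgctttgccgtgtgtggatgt

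The members differed widely in how many regions of each list lay around them. GATA3 regions were listed around 5 of the 7 genes, and around 76.3% of all coding genes. BHLHE40 and H3K27ac regions were listed around all 7, against 80.2% and 92.9% of coding genes. The long genes TCF12 and TCF4, whose windows span 473 kb and 514 kb, were at opposite ends of the GATA3 counts with 22 and 0. Because windows differ in length, counts are also given per 100 kb of window. The coding-gene medians on that scale were 0.994 for GATA3, 1.63 for BHLHE40 and 5.92 for H3K27ac.

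**Figure D1:**
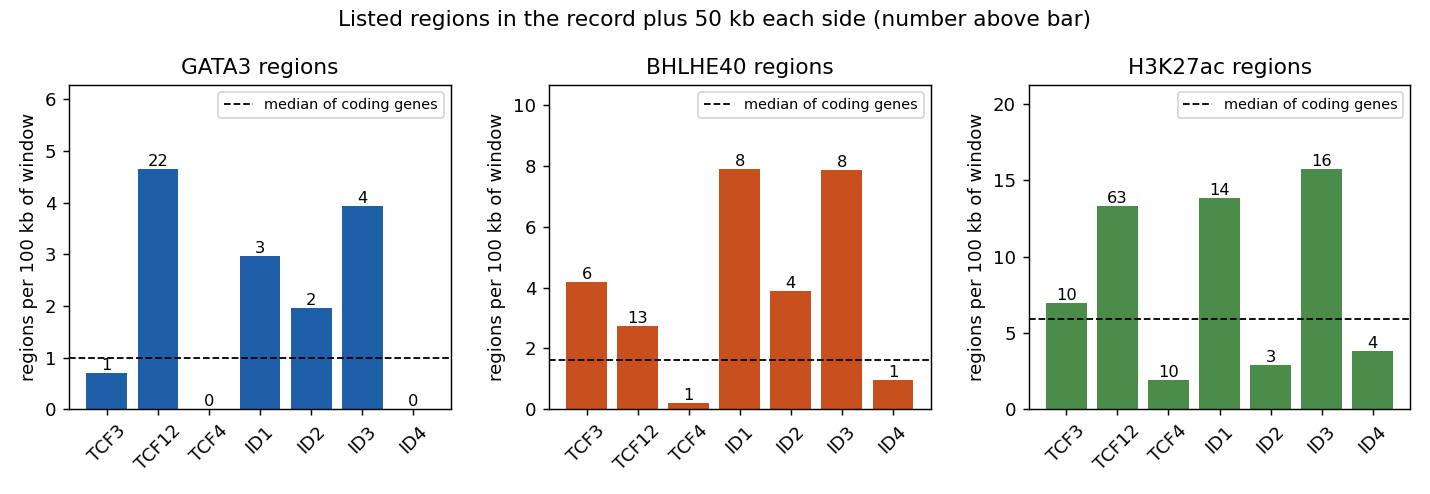
Regions per 100 kb of window (y axis) for the 7 genes (x axis) in the GATA3, BHLHE40 and H3K27ac lists, with the number of regions above each bar and the median over 19970 coding genes as a dashed line. TCF12, ID1 and ID3 stand above the median in all 3 lists, and TCF4 and ID4 stand below it in all 3.

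Among the E protein genes, TCF12 had 4.65 GATA3 regions, 2.75 BHLHE40 regions and 13.3 H3K27ac regions per 100 kb, more than 94.4%, 69.5% and 92.7% of coding genes. TCF3 had 0.698, 4.19 and 6.98 per 100 kb. It thus stood below the median for GATA3 and above it for BHLHE40 and H3K27ac. TCF4 had 0, 0.195 and 1.95 per 100 kb.

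Among the inhibitors, ID1 and ID3 had nearly equal BHLHE40 densities of 7.90 and 7.88 per 100 kb, higher than 97.9% and 97.8% of coding genes. Their GATA3 densities were 2.96 and 3.94 and their H3K27ac densities 13.8 and 15.8. Some of the ID3 BHLHE40 regions lay side by side, as chr1:23554180-23556400, chr1:23556491-23558051 and chr1:23558128-23558997 did. Some of those of ID1 lay inside the neighbouring gene HM13. The densities therefore count listed regions in a window and not separate binding places at the gene. How often regions of other coding genes adjoin in this way was not tested. ID2 had 1.95, 3.91 and 2.93 for GATA3, BHLHE40 and H3K27ac, so that it was above the medians for the factors and below that for H3K27ac. ID4 had 0, 0.954 and 3.82. There is 1 list per target, so none of these densities has an error, and no test was made between genes.

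The members' regions were spread through their lists by strength. The signal value, the authors' measure of enrichment, had a median of 8.38 over the 32 GATA3 regions against 11.2 in the whole list. It was 10.4 over the 41 BHLHE40 regions against 9.35, and 3.06 over the 120 H3K27ac regions against 3.31. In the top 10% of their own list by signal stood 3 GATA3, 4 BHLHE40 and 10 H3K27ac regions, which is 9.38%, 9.76% and 8.33% of the members' regions and so close to the 10% of any list. Of the 120 H3K27ac regions, 32 had a −log10 q of at least 5, 26.7% against 25.1% of the whole list.

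As a check of the cell type, H3K27ac regions within 1 kb of the start were looked up for markers of a T-cell leukaemia line. They lay at 6 of 7 such markers with an annotated start, and not at PTCRA. The 6 were CD3D, CD2, CD28, LCK, ZAP70 and TAL1, all with a −log10 q of at least 5. Of 15812 coding genes with a start, 54.9% had an H3K27ac region there at any q. Of 4 genes of other cells with a start, PAX5, CD14 and CSF1R had none and CD79A, a B-cell gene, had a weak one of signal 2.16 and −log10 q 3.08. The other 4 markers of the leukaemia line and 6 of other cells had no start in the table used.

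At the gene starts themselves the members fell into a group of 5 and a group of 2. All 3 lists had a region within 1 kb of the record start of TCF3, TCF12, ID1, ID2 and ID3, 5 of 7 genes, and no list had one at the record start of TCF4 or ID4. Over 15812 coding genes with a start, 22.1% had a GATA3 region there, 47.2% a BHLHE40 region, 54.9% an H3K27ac region and 20.4% all 3. The GATA3 signals at these starts were below the list's median of 11.2 at TCF3, ID1, ID2 and ID3 and above it at TCF12. With an irreproducible discovery rate of at most 0.01 in place of 0.05, those of TCF12 and ID2 stayed, 2 of the 5, where 76.2% of the whole GATA3 list stayed. BHLHE40 at the same rate kept its regions at 5 of the 5, where 79.6% of its list stayed. At a −log10 q of at least 5, H3K27ac also kept 5 of the 5, where 25.1% of its list stayed. With any annotated start counted in the lists as deposited, TCF4 joined for BHLHE40 and H3K27ac. The counts were then 5, 6 and 6 of 7, against 23.7%, 49.6% and 57.7% of coding genes. No exon, intron or UTR is told apart here, since the gene table gives only gene records and starts.

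TCF3 encodes the proteins E12 and E47 by alternative splicing and lies on chr19:1609292-1652615, minus strand. Its window held 1 GATA3, 6 BHLHE40 and 10 H3K27ac regions. The strongest BHLHE40 region of the 7 loci sat just before its start (chr19:1652642-1653437), with a signal of 46.6, rank 448 of 26205. Its summit lay 244 bases before the start. The only GATA3 region of the window (chr19:1652682-1653518) had its summit 12 bases away, with a signal of 6.65 at rank 25604 of 29009. The same stretch, whose summit bases are in capitals in the TCF3 sequence above, was thus near the top of one list and near the bottom of the other.

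The H3K27ac region at that place (chr19:1652658-1653048) had a signal of 33.1 and ranked 6 of 113570. Its −log10 q was 934. It was 391 bp wide, and the H3K27ac regions on either side of it had signals of 2.67 and 2.49. Of the 10 H3K27ac regions with the highest signal, 4 lay within 1 kb of a coding start (TCF3, BRAT1, PPP2R3B and GOLGA3) and 6 did not. No list of artefact-prone regions was applied to the H3K27ac list here, and whether this narrow, high region is a technical artefact was not tested.

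A further BHLHE40 region lay 1.22 kb into TCF3 with a signal of 19.7, rank 3360, and overlapped no GATA3 region. The remaining 4 BHLHE40 regions of the window were weaker, at 6.28 to 16.5, and the strongest of them was at the start of MEX3D, a neighbouring gene. Another, of 6.83, was at UQCR11, which encodes a subunit of the respiratory chain and lies just beyond the end of TCF3. The start of MBD3, a gene of the NuRD repressor complex, carried the strongest H3K27ac region of the window after that of TCF3, at 11.9.

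TCF12 lies on chr15:56918090-57291310, plus strand, and was the member with most GATA3 regions, holding 22 of the 32 around all 7 genes. It also held 13 of the 41 BHLHE40 and 63 of the 120 H3K27ac regions, 10 of the 63 with a −log10 q of at least 5. No other coding gene record touches its window. The strong regions were gathered near the start.

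The strongest GATA3 region of the window (chr15:56931503-56932818) lay 14.3 kb into the record, with a signal of 88.4, rank 368 of 29009. The BHLHE40 region there had a signal of 35.6, rank 900 of 26205, and its summit was 18 bp from that of GATA3. The strongest H3K27ac region of the window, of signal 6.33, overlapped both. This was the place in TCF12 where all 3 lists had their highest value.

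A second strong pair lay 23.2 kb before the start, inside the divergent non-coding gene TCF12-DT. GATA3 had a signal of 57.6 there (rank 1103) and BHLHE40 one of 34.9 (rank 940), with summits 12 bp apart. The H3K27ac region at that place had a signal of 3.32, close to the list's median of 3.31, and a −log10 q of 3.57. At the start itself the summits lay 7 and 23 bases before the second annotated start, at base 56918644, as marked in the TCF12 sequence above. The signals were 13.3 for GATA3 (rank 11592) and 32.6 for BHLHE40 (rank 1095), and 5.12 for the H3K27ac region. BHLHE40 therefore had 3 regions of like signal around TCF12, whereas GATA3 spanned 13.3 to 88.4 over the same 3 places.

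Away from the start the regions thinned. The first 100 kb of the TCF12 record held 8 GATA3 regions with a median signal of 16.7, and 5 of them overlapped a BHLHE40 region. The other 273 kb held 10 GATA3 regions with a median of 7.31, of which 2 overlapped BHLHE40. BHLHE40 itself had 8 regions in the first 100 kb and 3 in the rest. Beyond the end of the gene, in the non-coding gene LINC01413, a pair of GATA3 (13.1) and BHLHE40 (13.4) regions lay 17 bp apart by summit.

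TCF4 is the E protein gene that plasmacytoid dendritic cells depend on, and lies on chr18:55222185-55635957, minus strand. No GATA3 region was listed in its 514 kb window. The 1 BHLHE40 region (chr18:55589647-55590335) had a signal of 8.41, rank 15235, and its summit lay 18 bases before an internal start 46.1 kb into the record, marked in the TCF4 sequence above. Of the 10 H3K27ac regions 2 had a −log10 q of at least 5, with signals of 4.26 and 4.16, and both lay within 1 kb of internal starts in the same stretch. The BHLHE40 region and these H3K27ac regions were thus at 1 cluster of internal starts and not at the record start.

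**Figure D2:**
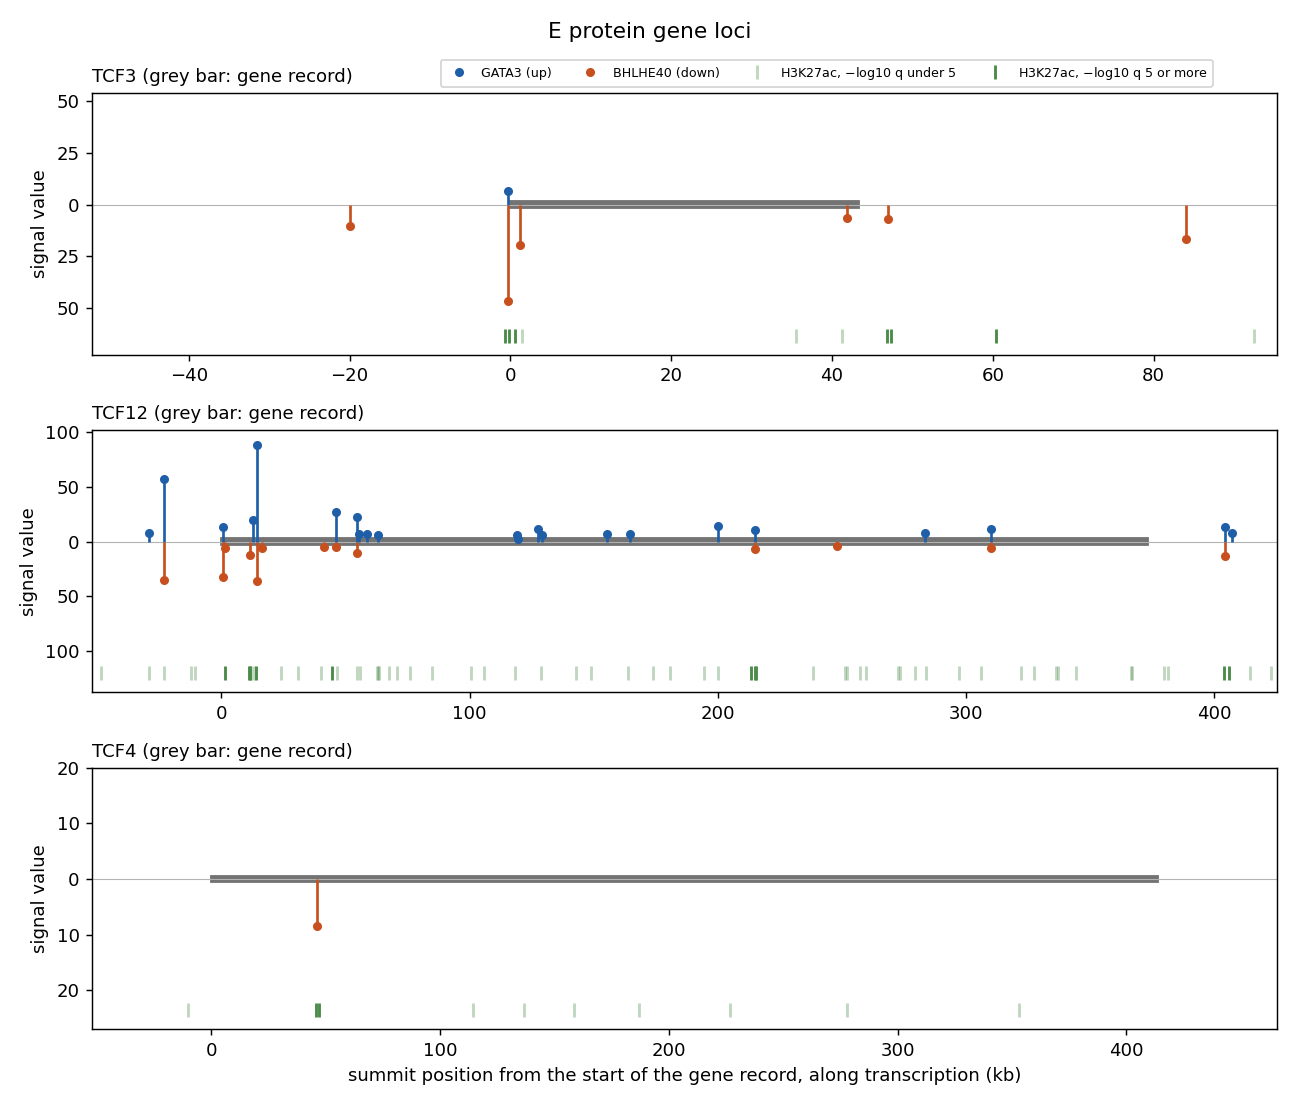
Signal value (y axis, GATA3 upwards and BHLHE40 downwards) against summit position in kb from the start of the gene record along transcription (x axis) for TCF3, TCF12 and TCF4, with H3K27ac summits as green ticks, dark where −log10 q is at least 5, and the gene record as a grey bar. The y scales differ between panels. TCF12 has its tallest lines near the start, TCF3 has a tall BHLHE40 line with a short GATA3 line at the start, and TCF4 has a single BHLHE40 line.

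ID3, the inhibitor gene that T-cell receptor signalling raises through EGR factors, lies on chr1:23557926-23559501, minus strand. It held the strongest GATA3 region of the 7 loci (chr1:23539357-23540753), with a signal of 115 at rank 168 of 29009. That region lay 17.9 kb beyond the end of the gene, inside the uncharacterised gene record LOC124903876. The BHLHE40 region with its summit 34 bp away had a signal of only 8.06, rank 16108 of 26205, and the H3K27ac region one of 3.17. In TCF12 the strongest GATA3 region came with a strong BHLHE40 region, and here it did not.

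At the ID3 start the order by rank within each list was the other way. GATA3 had a signal of 5.52 (rank 27729), with its summit 19 bases before the start. BHLHE40 had one of 8.60 (rank 14769) with its summit 60 bases before, as marked in the ID3 sequence above. BHLHE40 stood at 61.5% of its list beyond the gene and at 56.4% at the start, so mainly the GATA3 rank differed. A second BHLHE40 region, of 11.9, lay 954 bases into the gene. The H3K27ac region at the start had a signal of 2.37 and a −log10 q of 6.97. The strongest BHLHE40 region of the locus, of 20.7, lay 3.05 kb beyond the end over LOC105376859, together with the strongest H3K27ac region, of 7.26 and −log10 q 86.6. No GATA3 region overlapped that BHLHE40 region. A pair of GATA3 (16.7) and BHLHE40 (9.36) regions had summits 3.07 and 3.01 kb before the start.

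ID1, a target of BMP signalling through SMAD proteins in many cell types, lies on chr20:31605289-31606510, plus strand. Its 8 BHLHE40 regions were of even strength, from 8.28 to 14.6, and 7 of them overlapped an H3K27ac region. The strongest lay 2.25 kb before the start. Within 1 kb of the start were BHLHE40 regions of 12.8 and 10.5 and a GATA3 region of 5.59 at rank 27624. The H3K27ac regions there had signals of 5.07, 3.17 and 2.57. The strongest GATA3 region of the locus, of 15.7, lay 15.3 kb from the start on the far side of the gene and overlapped neither other list. The strongest H3K27ac region, of 7.13, lay 44.7 kb before the start inside HM13.

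ID2, an inhibitor needed for innate lymphoid and natural killer cells, lies on chr2:8682056-8684461, plus strand. Its strongest BHLHE40 regions were 1 of 14.0 lying 2.76 kb before the start, inside the antisense gene ID2-AS1, and 1 of 12.4 whose summit lay 72 bases before the start. The strongest H3K27ac region, of 6.42, overlapped the former. No H3K27ac region overlapped the latter, and the nearest, of 3.49, had its summit 667 bases before the start. That H3K27ac region overlapped a weaker BHLHE40 region, of 6.19, whose summit lay 651 bases before the start. The GATA3 region at the start had a signal of 7.96, rank 22014, and its summit lay 6 bases before the start. ID2 was the member with regions of both factors over its start summit but no overlapping H3K27ac.

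ID4, which is expressed mainly in the nervous system and in some epithelia, lies on chr6:19837370-19842197, plus strand. It had no GATA3 region. Its 1 BHLHE40 region, of 11.7 at rank 9238, lay 32.5 kb before the start in the non-coding gene LNC-LBCS and overlapped an H3K27ac region of 5.18, the only one of 4 at this locus with a −log10 q of at least 5.

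**Figure D3:**
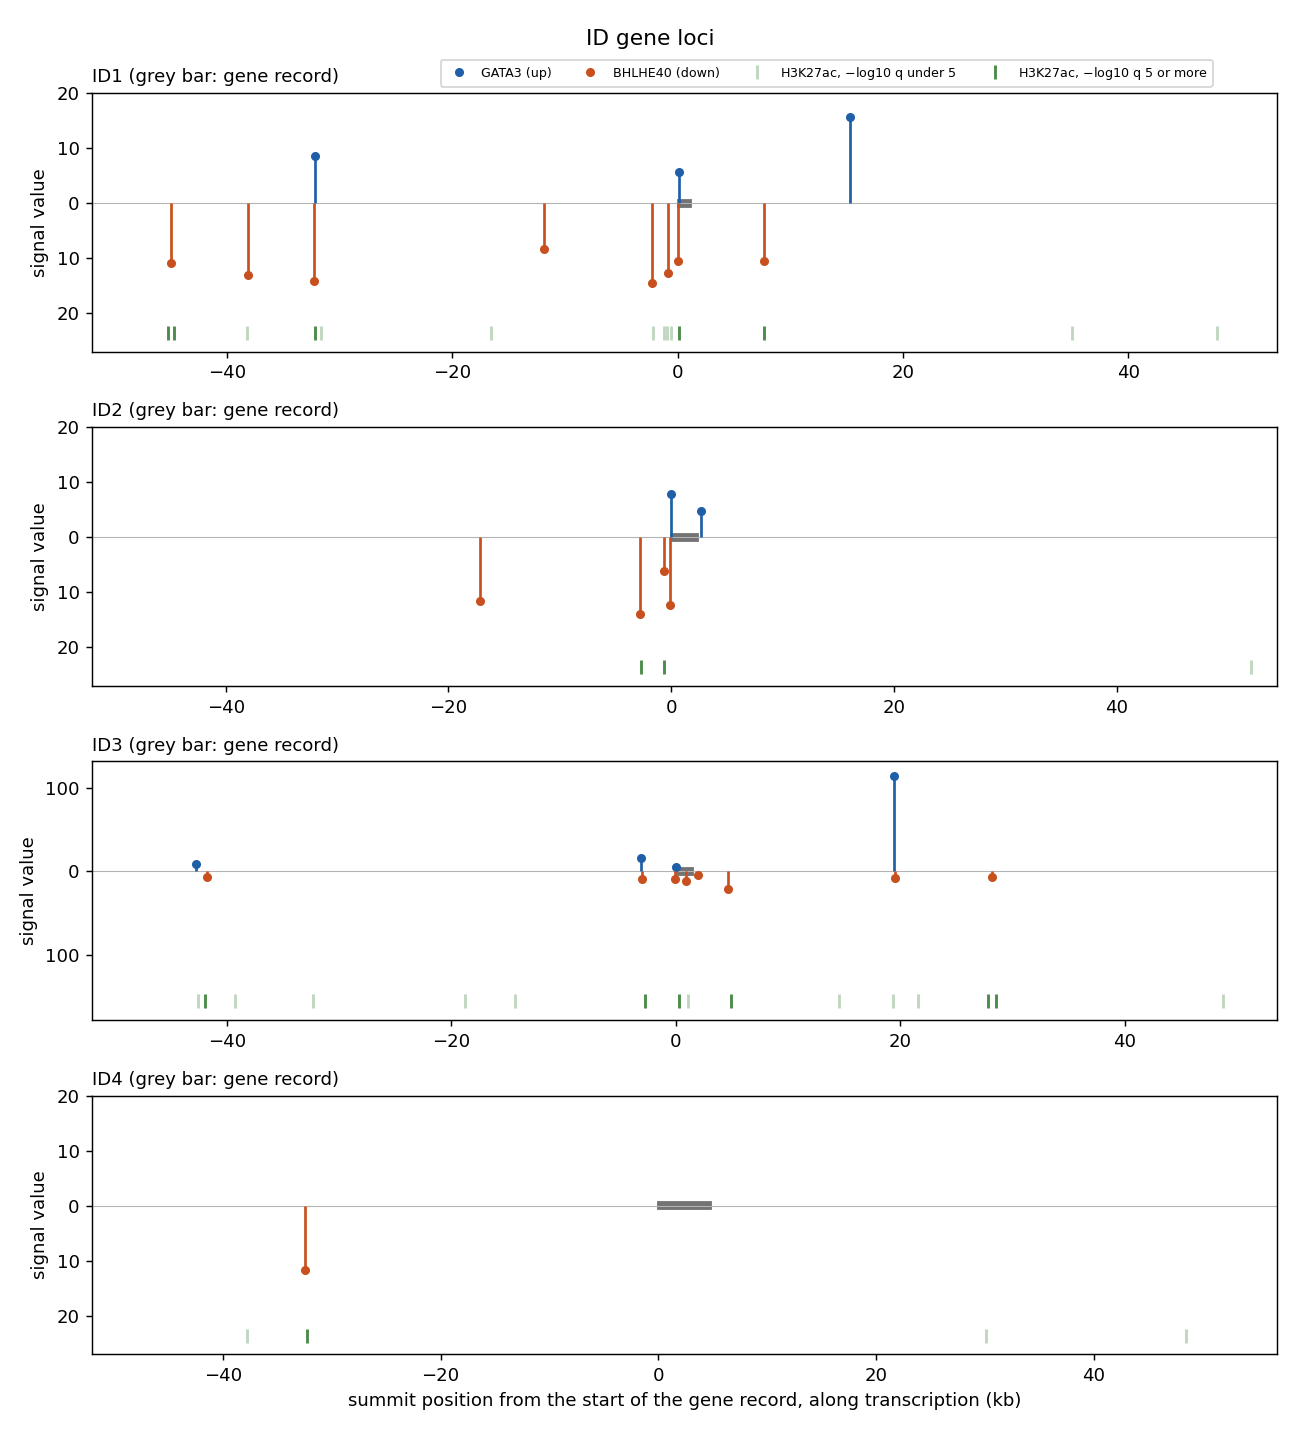
Signal value (y axis, GATA3 upwards and BHLHE40 downwards) against summit position in kb from the start of the gene record along transcription (x axis) for ID1, ID2, ID3 and ID4, with H3K27ac summits as green ticks, dark where −log10 q is at least 5. ID3 shows the tall GATA3 line of 115 beyond the gene, ID1 shows 8 BHLHE40 lines of similar height, and ID4 shows 1.

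Overlap between the lists was counted wherever regions shared at least 1 bp. Of the 32 GATA3 regions, 16 overlapped a BHLHE40 region, 50.0% (95% Wilson interval 33.6 to 66.4, which covers counting error only) against 48.7% of the whole list. Counted from the other side, the same 16 were 39.0% of the 41 BHLHE40 regions (25.7 to 54.3) against 53.0%. TCF12 held 9 of the 16, and without it 7 of 28 BHLHE40 regions overlapped GATA3, 25.0% (12.7 to 43.4). At the ID loci the count was 6 of 21, 28.6%, and at TCF12 9 of 13, 69.2%.

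With H3K27ac, 30 of the 41 BHLHE40 regions overlapped, 73.2% against 76.4% of the whole list, and 19 of the 32 GATA3 regions, 59.4% against 49.1%. Of the 37 H3K27ac regions at the ID loci, 22 overlapped a BHLHE40 region, 59.5% (43.5 to 73.7), and of the 83 at the E protein loci 18 did, 21.7% (14.2 to 31.7). The whole-list share was 22.9%. By gene the share was 60.0% at TCF3, 17.5% at TCF12 and 10.0% at TCF4. At ID1, ID2, ID3 and ID4 it was 78.6%, 66.7%, 50.0% and 25.0%, so the 2 groups of genes overlapped. Long TCF12 gives 63 of the 83 regions at the E protein loci. Regions of 1 locus are not independent, so no test of the difference between E protein and ID loci was made. BHLHE40 regions that overlapped neither other list were 9 of 41, 22.0% (12.0 to 36.7), against 11.7% of the whole list. For GATA3 they were 10 of 32 against 39.9%, and for H3K27ac 72 of 120 against 73.6%.

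Where GATA3 and BHLHE40 regions overlapped, their summits were close. Over the 16 pairs the median distance was 24.5 bp, with a range of 1 to 1240 bp, and 11 pairs were within 50 bp. That is 68.8%, against 61.5% of all overlapping GATA3 regions, whose median distance was 35 bp. At the 5 starts BHLHE40 ranked higher in its list than GATA3 in its own in 5 of 5 pairs, with a median GATA3 place at 88.3% of the list counted from the strongest and a median BHLHE40 place at 32.0%. Away from starts GATA3 ranked higher in 8 of 11 pairs, with medians of 22.4% and 46.2%. In the whole lists BHLHE40 ranked higher in 77.2% of overlapping GATA3 regions at coding starts and in 44.1% of the others, so the members' pattern follows that of the lists.

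**Figure D4:**
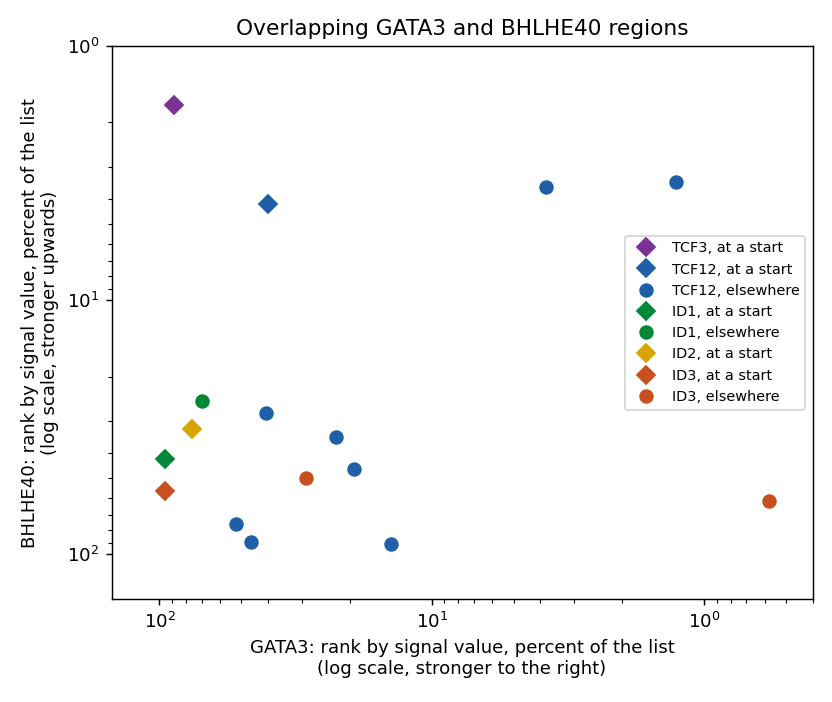
Place of each overlapping GATA3 region in its list (x axis, percent of the list counted from the strongest, log scale, stronger to the right) and of its BHLHE40 region (y axis, same scale, stronger upwards) for the 16 pairs, with diamonds at starts, circles elsewhere and colours for genes. The 5 diamonds lie at GATA3 places between 40.0% and 95.6%. The circles lie between 0.579% and 69.7%, so the ranges overlap. The ID3 circle at the far right joins the strongest GATA3 region to a BHLHE40 place of 61.5%.

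The letters of the promoter windows were searched on both strands for the general E-box letters CANNTG and the 4 cases of it listed with their shares below, and for the GATA letters AGATAA, or else with T as the first letter. A window ran from 250 bases before to 50 bases after a start, and the members had 20 such windows, 10 of them of TCF4. A BHLHE40 region overlapped 8 windows and a GATA3 region 6, all 6 among the 8. The 8 are not independent, since 3 belong to neighbouring starts of TCF12.

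Only 1 of the 8 windows with a BHLHE40 region held CANNTG, the CAGCTG of ID2, 205 bases before the start and 131 bp from the BHLHE40 summit. None held CACGTG, and none held AGATAA or TGATAA. The GATA letters AGATAG and TGATAG were not searched, and the ID2 stretch shown above holds TGATAG. Over 22139 windows of coding genes, CANNTG was in 65.1%, CACGTG in 8.34%, CACATG in 8.93%, CAGCTG in 18.0%, CAGGTG in 20.0%, AGATAA in 7.88% and TGATAA in 5.56%. Among the 9446 of them that a BHLHE40 region overlapped, CANNTG was in 58.9% and CACGTG in 11.4%, and among the rest in 69.7% and 6.05%. The CACGTG copies of the members were in the first TCF12 window, 183 bases before the start, and in a TCF4 window, 49 bases before the start, both shown above and neither overlapped by a BHLHE40 region. A match is a run of letters and not a bound site, and windows away from starts were not searched.

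Other genes of the E protein pathway were described from 2 lists taken from textbook knowledge. Partners and cofactors of E proteins were 13 genes, with median counts of 2 GATA3, 3 BHLHE40 and 9 H3K27ac regions. Targets and upstream regulators were 22 genes, with medians of 3.5, 3.5 and 11.5. The members' medians were 2, 6 and 10, and those of coding genes 2, 2 and 8. Per 100 kb of window the GATA3 medians were 1.56 for partners, 2.72 for targets and regulators, 1.95 for the members and 0.994 for coding genes. The BHLHE40 medians on that scale were 1.89, 2.67, 3.91 and 1.63, and the H3K27ac medians 7.56, 8.36, 6.98 and 5.92. All 3 lists had a region at the start of 2 of 11 partners and of 4 of 18 targets and regulators with a known start, near the 20.4% of coding genes.

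Among the partners, TAL1 and LYL1, which pair with E proteins in leukaemia, had 5 GATA3 regions each, with 5 and 8 BHLHE40 regions, and these were the highest GATA3 counts of that list and the highest GATA3 densities, at 4.31 and 4.82 per 100 kb. CBFA2T3, an ETO-family corepressor, had 8 BHLHE40 regions and the most H3K27ac regions by count, 31 in 202 kb. Per 100 kb it had 15.3 H3K27ac regions and TAL1 19.8. EP300, an acetyltransferase that E proteins recruit, had no GATA3 region but 4 BHLHE40 regions, and TWIST1 had neither. Among targets and regulators TGFBR1, a receptor of TGF-beta, had the most of both factors by count, 11 GATA3 and 10 BHLHE40 regions. RAG1, a recombinase of receptor gene rearrangement, had 9 GATA3 regions and 2 of BHLHE40. SOCS1, NOTCH3 and SMAD1 had no GATA3 region.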

How the data were processed

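ChIP-seq regions of stimulated Jurkat cells were taken from 3 deposited peak lists, each standing for a group of 2 samples. Samples were grouped by title, and the other 16 of 19 groups are not analysed here. Per the submitters' processing notes the build was hg38 and the tools included MACS2 and bcl2fastq 2.20. The aligner, any filter and whether input was subtracted are not given in the sources used here. The deposited factor lists are named for an irreproducible discovery rate of 0.05 and that of H3K27ac for pooled samples. The signal value, the score and the −log10 q of each region are the authors' deposited values, used only to rank, describe or filter regions within 1 list. A deposited score of at least 830 stands for a rate of at most 0.01. What the signal is relative to and the depth of the samples are unknown, so no interval uses depth.

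Regions were joined to gene records of the RefSeq GRCh38.p14 table by at least 1 bp, with 50 kb added on each side, and lists to each other by at least 1 bp. A start is the strand-aware end of the record, known from the promoter table for 15812 of 19970 coding genes. Coordinates are 1-based. Intervals are 95% Wilson intervals. There is 1 list per target, so nothing was tested. For each gene, up to 3 of the strongest regions per list and those within 1 kb of its start were named, and pathway genes by most or fewest regions. Names outside that rule were chosen after their values were seen, as was the rank comparison of pairs. These names were the genes at the top 10 H3K27ac regions, further TCF12 pairs, the weaker ID1 and ID3 regions, and RAG1. The members and lists were chosen with earlier results of these data known. No genome sequence was used here, so the planned motif search ran on RefSeq promoter windows of 300 bases. Alternatives covered other windows, stricter lists, other overlap rules and leaving out each locus. The functions were tested on simulated data with Python 3.11.15, numpy 2.4.6, pandas 2.3.3 and scipy 1.17.1, and figures used matplotlib 3.10.9.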

Additional observations from a re-analysis of the deposited data

How the results depend on the processing

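Over 12 results and 83 alternatives, 79 planned and 4 chosen after seeing the data, 70 values stayed within the limits set and 13 moved. The limits were wide, so a value that stayed can still differ clearly from the main one. A share stayed while it was inside the Wilson interval of its main value. For counts, 47 GATA3 regions with 100 kb on each side still stayed beside the main 32. With the gene record alone in place of 50 kb on each side, the regions were 21 for GATA3, 19 for BHLHE40 and 68 for H3K27ac. At a discovery rate of 0.01 GATA3 had 20 regions, and at a −log10 q of at least 5 H3K27ac had 32. The GATA3 share overlapping H3K27ac was 31.3% when the summit had to lie inside and 31.3% at a −log10 q of at least 5. The BHLHE40 share was 48.8% and 56.1% under the same settings. Whole-list shares were not computed under these settings, so whether the drops are particular to the members cannot be told. GATA3 regions at starts were 2 of 7 genes at 0.01, and also 2 at 0.01 with any annotated start counted. The shorter windows and stricter lists count less sequence or fewer regions by construction, and the summit rule asks for more than 1 shared base. Leaving out each locus in turn gave 46.4 to 70.0% for GATA3 overlapping BHLHE40, 25.0 to 42.9% for the reverse, 53.6 to 70.0% for GATA3 overlapping H3K27ac and 69.7 to 77.1% for BHLHE40 overlapping H3K27ac. The ends of 70.0% and 25.0% for the factors came without TCF12. No paired analysis was possible because the 3 lists combine their samples and give none of them a value of its own. For that reason no replicate could be left out. The planned motif window of 100 bp around summits was not run. Regions under the authors' thresholds are not in the lists, so a gene with no region is a gene with none listed.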
